A study of Homo sapiens with 7 samples.

Results

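The genes described here are the homeobox developmental transcription factors outside the HOX clusters that belong to the PAX, LHX, IRX, DLX, MSX, OTX, EN, MEIS and NKX families and to the sine oculis homeobox family. They were chosen by name from the autosomal protein-coding genes of GENCODE 44 on hg38, as genes called by a family name and a number or, for NKX, by 2 numbers joined with a hyphen. The rule gave 58 genes of 19111. The study mapped H3K27me3 and H3K9me3 by ChIP-seq in HCT116, a human colorectal carcinoma epithelial cell line, to annotate chromatin for its DNA methylation data. All cells carried a doxycycline-inducible shRNA against UHRF1, a factor needed to maintain DNA methylation, and were collected after 14 days with no doxycycline (NoDox or Baseline). Clone 3 and Clone 6 are each a line grown from 1 clone, so a difference between them is a difference between 2 clonal lines, which carry the same construct. The samples were 2 of Clone 3 H3K27me3, 2 of Clone 3 H3K9me3, 2 of Clone 6 H3K27me3 and 1 Clone 3 input. H3K9me3 of Clone 6 enters only through the clone-shared set, and its samples are not analysed here.

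The deposited data are 5 sets of broad domains, named here Clone 3 H3K27me3, Clone 6 H3K27me3, clone-shared H3K27me3, Clone 3 H3K9me3 and clone-shared H3K9me3. A domain is a long stretch in which the mark was called enriched in the replicates of a clone, and the clone-shared sets keep the stretches found in both clones. The sets hold no value per sample and no read count. The study states a minimum depth per library, but the depth that each library reached is not in these files, no replicate error can be given and no test over samples was possible, so the counts below are descriptions, and the main counts over the 58 genes are set beside the share of all 19111 genes. The values in the text state whether the start site of a gene, or any base of its body, lies in a domain, and how far it is from the edge. Where no clone is named, a distance to the nearest H3K27me3 domain is the smaller of those for Clone 3 and Clone 6. Outside a domain means outside the broad calls, and narrower enrichment at a start site was not measured here.

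H3K27me3 is deposited by Polycomb repressive complex 2 and marks genes held silent, above all developmental regulators with CpG-rich start sites that a cell type does not use. Many homeobox genes are textbook Polycomb targets, because each is used in a few tissues and is kept off elsewhere. H3K9me3 is the mark of constitutive heterochromatin, where it is read by HP1 proteins, and it usually covers gene-poor and repeat-rich sequence. PAX1 and PAX9 have a paired domain and no homeodomain, and PAX2, PAX5 and PAX8 keep only a part of the homeodomain, but all are grouped with the paired homeobox genes.

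The stretches just before the start sites of 6 PAX and NKX genes are shown because they set genes in different states side by side. PAX3 lay in H3K27me3 domains of both clones and PAX6 in those of neither, and PAX7, PAX5, NKX2-3 and PAX4 lay in those of Clone 6 only, of which PAX4 is CpG-poor. They are the 250 bases before each start site, 5′ to 3′ on the strand of the gene, from RefSeq on GRCh38.p14, and the capitals mark each CpG, the motif CG, which reads the same on both strands. RefSeq promoters were given for 40 of the 58 genes. All 6 stretches end at the base before the GENCODE start site and overlap no annotated exon.
PAX3: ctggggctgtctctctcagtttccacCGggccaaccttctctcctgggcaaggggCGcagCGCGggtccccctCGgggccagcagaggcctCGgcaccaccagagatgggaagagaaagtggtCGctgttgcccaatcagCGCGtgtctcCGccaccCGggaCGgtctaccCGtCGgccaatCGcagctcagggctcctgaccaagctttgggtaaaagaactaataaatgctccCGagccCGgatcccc
PAX6: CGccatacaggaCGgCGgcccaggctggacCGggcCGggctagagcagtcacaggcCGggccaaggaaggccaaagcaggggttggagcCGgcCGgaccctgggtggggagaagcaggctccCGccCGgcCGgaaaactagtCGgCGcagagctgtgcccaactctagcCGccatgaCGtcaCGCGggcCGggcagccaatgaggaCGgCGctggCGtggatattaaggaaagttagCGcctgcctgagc
PAX7: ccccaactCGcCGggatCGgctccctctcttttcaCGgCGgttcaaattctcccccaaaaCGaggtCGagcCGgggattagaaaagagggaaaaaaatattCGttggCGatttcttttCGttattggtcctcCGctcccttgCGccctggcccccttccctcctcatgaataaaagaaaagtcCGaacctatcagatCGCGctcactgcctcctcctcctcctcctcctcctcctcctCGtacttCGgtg
PAX5: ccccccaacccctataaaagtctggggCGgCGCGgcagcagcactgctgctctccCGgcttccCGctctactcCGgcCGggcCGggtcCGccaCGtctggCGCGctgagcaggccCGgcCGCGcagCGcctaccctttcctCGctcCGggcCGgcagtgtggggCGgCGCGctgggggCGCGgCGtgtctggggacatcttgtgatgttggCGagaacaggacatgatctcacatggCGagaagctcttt
NKX2-3: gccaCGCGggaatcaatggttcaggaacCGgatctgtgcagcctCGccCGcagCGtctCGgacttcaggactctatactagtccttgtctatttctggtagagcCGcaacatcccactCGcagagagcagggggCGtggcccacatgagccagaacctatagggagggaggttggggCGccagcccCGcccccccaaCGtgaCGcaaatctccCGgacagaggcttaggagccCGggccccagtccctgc
PAX4: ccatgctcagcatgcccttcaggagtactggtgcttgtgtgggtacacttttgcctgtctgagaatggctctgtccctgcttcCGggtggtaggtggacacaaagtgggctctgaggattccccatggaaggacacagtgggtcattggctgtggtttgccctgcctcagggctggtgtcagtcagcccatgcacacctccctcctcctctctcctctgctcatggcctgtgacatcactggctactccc

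The PAX3 stretch is chr2:222298999-222299248 on the minus strand and holds 17 CpGs, a number reached by 39.0% of the 35116 promoters in the RefSeq table. It lies inside CCDC140, outside its exons. PAX6, chr11:31817962-31818211 on the minus strand, holds 22 CpGs (28.0% of promoters hold as many) and lies inside the RNA gene PAUPAR. PAX7, chr1:18630596-18630845 on the plus strand, holds 18 (36.8%). PAX5, chr9:37034269-37034518 on the minus strand, holds 27 (17.7%). NKX2-3, chr10:99532692-99532941 on the plus strand, holds 16 (41.0%). The PAX4 stretch, chr7:127618143-127618392 on the minus strand, holds 1, and 93.9% of promoters hold as many or more. The median was 11 CpGs over all promoters in the table and 22 over the 40 homeobox genes found in it. CpG number therefore did not separate these PAX and NKX genes by state, since PAX6, in no domain, lay between PAX7 and PAX5.

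Of the 58 homeobox genes, 9 (15.5%) started inside a Clone 3 H3K27me3 domain, beside 6.49% of all autosomal protein-coding genes. In Clone 6 the number was 19 (32.8%), beside 7.98%. The clone-shared H3K27me3 set held 8 start sites (13.8%), beside 5.35%. For H3K9me3 the share was close to the background, with 2 genes (3.45%) in the Clone 3 set, beside 3.5%, and the same 2 genes in the clone-shared set, beside 3.39%. H3K27me3 domains of at least 1 clone held 20 of the 58 (34.5%), against 1744 of all genes (9.13%). The other 38 (65.5%) started outside the H3K27me3 domains of both clones, beside 90.9% of all genes. Of the 58 genes, 36 started in no domain of the 5 sets, a count with no all-gene share given here. The homeobox share was thus above the background in all 3 H3K27me3 sets and at the background in both H3K9me3 sets. Most of the 58 genes lay outside, but for H3K27me3 this was a smaller share than that of all genes.

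When any base of the gene body was counted, 12 genes (20.7%) lay in Clone 3 H3K27me3 domains, beside 8.7% of all genes. In Clone 6 there were 20 (34.5%), beside 10.3%, and in the clone-shared set 11 (19.0%), beside 7.19%. The Clone 3 H3K9me3 set again held 2, beside 4.08%, and the clone-shared H3K9me3 set 2, beside 3.9%. The body count added EN1, PAX5 and PAX7 in Clone 3 and PAX2 in Clone 6. No base lay in any set for 35 genes, again with no all-gene share given here.

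**Figure D1:**
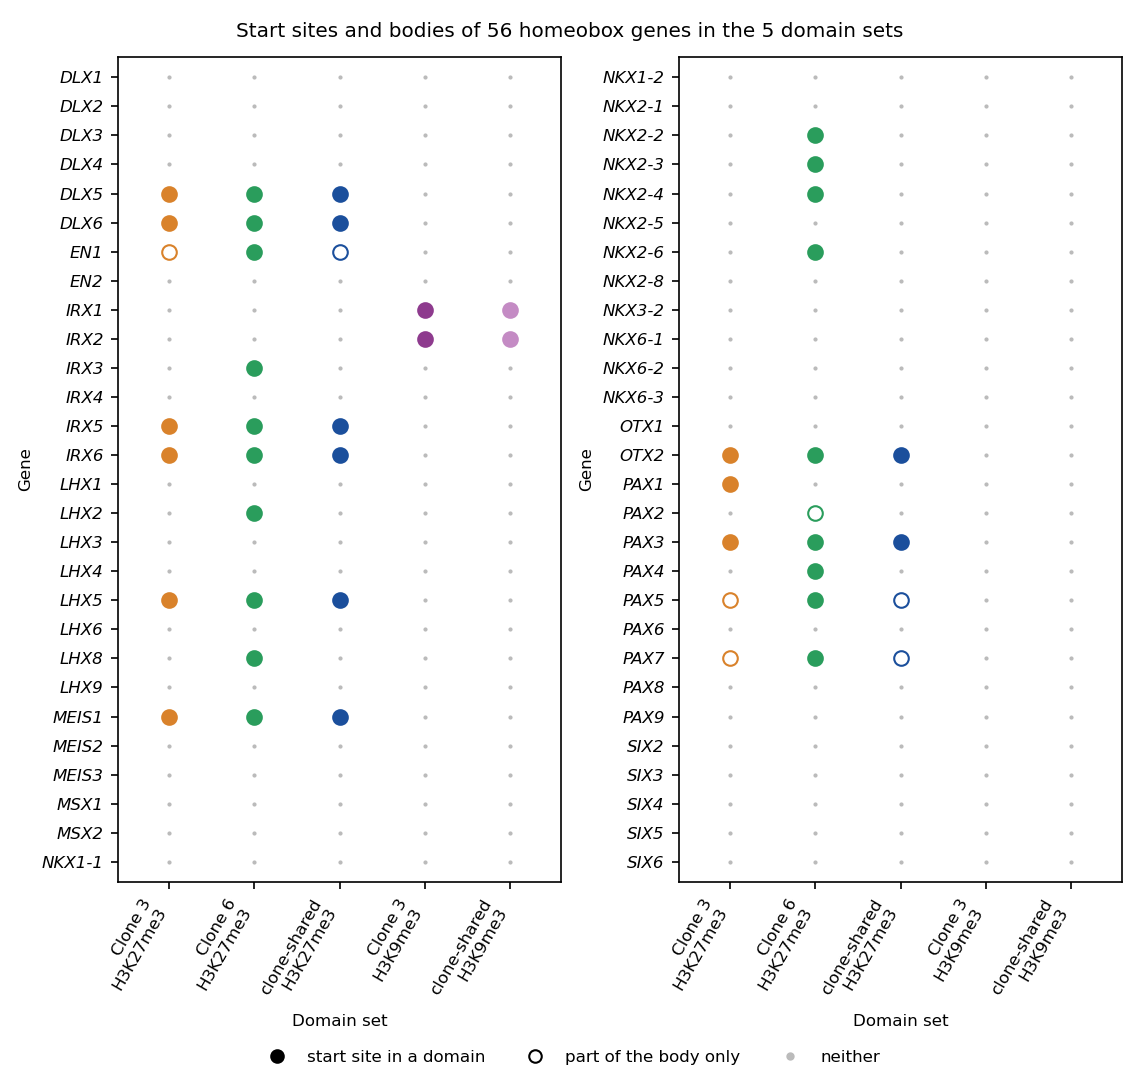
Each row is 1 of the 56 genes drawn and each column a domain set, a filled circle marks a start site in a domain, an open circle a gene with only part of its body in a domain, and a dot neither. Filled circles are most frequent in the Clone 6 H3K27me3 column (19 of the 56 genes drawn), the rows of the MSX genes and of SIX2, SIX3, SIX4, SIX5 and SIX6 hold dots only, and IRX1 and IRX2 are alone in the H3K9me3 columns.

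The clones differed for 12 of the 58 genes. The start site of 11 genes (19.0%) lay in a Clone 6 domain and in no Clone 3 domain, beside 2.64% of all genes. These were EN1, IRX3, LHX2, LHX8, NKX2-2, NKX2-3, NKX2-4, NKX2-6, PAX4, PAX5 and PAX7. PAX1 alone had the opposite state (1.72%, beside 1.14%). DLX5, DLX6, IRX5, IRX6, LHX5, MEIS1, OTX2 and PAX3 lay in domains of both clones. Homeobox genes of other families, a list of 100 that includes the PBX, POU, ALX and PITX genes, showed similar shares in Clone 3 (15, 15.0%) and a smaller one in Clone 6 (24 genes, 24%), with 13 genes in both clones, 11 in Clone 6 only and 2, SATB1 and POU4F3, in Clone 3 only. None of these 100 lay in an H3K9me3 domain of either set, beside 3.5% and 3.39% of all genes.

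**Figure D2:**
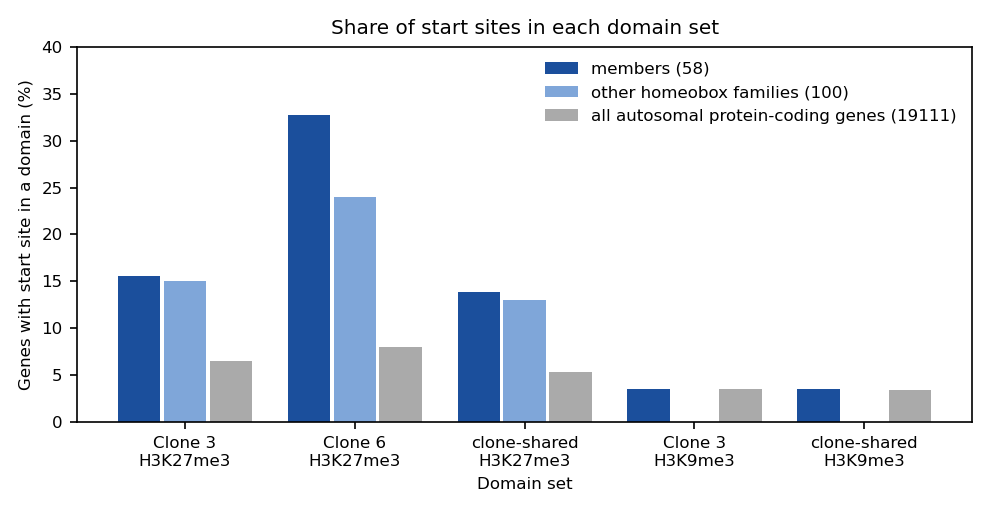
Bars give the percentage of genes whose start site lies in a domain of each set, for the 58 genes described here, 100 homeobox genes of other families and all 19111 autosomal protein-coding genes. In the H3K27me3 sets both homeobox bars exceed the grey background bar, with the widest gap in Clone 6 (32.8% and 24% against 7.98%). The sets are merged over replicates, so no error bars can be drawn.

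The PAX genes encode paired-domain regulators of segmental, sensory, endocrine and blood lineages, and 2 of the 9 lay in Clone 3 and 4 in Clone 6 H3K27me3 domains, beside 6.49% and 7.98% of all genes. PAX3, which specifies neural crest and muscle progenitors, lay in both clones, and its whole body was covered. The Clone 3 domain, chr2:220891001-222318000, is 1427 kb long and holds the start sites of PAX3 and the ephrin receptor EPHA4. The Clone 6 domain, chr2:221178001-222322000, is 1144 kb long, and the clone-shared one 1140 kb. The PAX3 start site lay 19.002 kb inside the Clone 3 edge and 23.002 kb inside the Clone 6 edge, at the end of both domains. At 1427 kb this was the longest H3K27me3 domain at any of the 58 genes.

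PAX7, the satellite cell counterpart of PAX3, was inside a Clone 6 domain of 1100 kb, chr1:17770001-18870000, 239 kb from its edge. Clone 3 domains covered 79.1% of that same stretch in 5 pieces and left a gap of 115 kb around the PAX7 start site. The gap ended inside the gene, since Clone 3 domains at chr1:18691001-18703000 and chr1:18704001-18794000 covered 48.2% of the PAX7 body. PAX7 thus differed between clones at its start and not over its 3′ part.

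PAX5, which fixes B cell identity, was inside a Clone 6 domain of 332 kb, chr9:36740001-37072000, that covered its whole 201 kb body. In Clone 3, domains at chr9:36867001-36924000 and chr9:36933001-36960000 covered 41.8% of the body, and the nearer lay 74.3 kb from the start site. Clone 3 domains covered 25.3% of the Clone 6 domain.

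PAX4, a regulator of pancreatic beta cell fate, was inside a Clone 6 domain of only 18 kb, chr7:127610001-127628000, with its start site 8.14 kb from the edge. No Clone 3 domain touched it, and the nearest was 61.1 kb away. Of the 1959 Clone 6 domains, 0.715% were as short or shorter, and 1.79% had a lower score as low or lower. The score is the lower of the 2 values that the authors give for each domain, and its scale is not named.

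PAX1, needed for vertebrae and thymus, was the only Clone 3 gene outside the Clone 6 set. Its Clone 3 domain, chr20:21515001-21721000, spans 206 kb and covers all of PAX1. The Clone 6 domain beside it, chr20:21508001-21704000, ends 1.66 kb before the PAX1 start site and covered 91.7% of the Clone 3 domain. PAX2, a kidney and optic stalk factor, lay outside at its start, 41.4 kb from a Clone 6 domain, and its 3′ end reached into a 42 kb Clone 6 domain that covered 2.06% of its body. PAX6, central to eye and pancreas, lay 558 kb from the nearest H3K27me3 domain, PAX8 of thyroid and kidney 751 kb, and PAX9 of teeth and pharyngeal pouches 117 kb. For PAX9 that domain was of Clone 3, and the nearest of Clone 6 lay 2824 kb away. PAX6, PAX8 and PAX9 lay in none of the 5 sets with any base, and no PAX gene touched an H3K9me3 domain.

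The NKX genes, the largest family with 14 members, pattern heart, gut, neural tube and endocrine organs. None lay in a Clone 3 H3K27me3 domain, near the 6.49% of all genes for a family of this size, and 4 lay in Clone 6 domains, beside 7.98%. NKX2-2, a determinant of ventral neural tube and pancreatic endocrine cells, lay 6.06 kb inside the Clone 6 domain of 196 kb at chr20:21508001-21704000 and 0.937 kb outside the Clone 3 domain of 206 kb that holds PAX1. Clone 3 covered 96.4% of this Clone 6 domain. The NKX2-2 start site in RefSeq lies 8625 bases further upstream, inside the Clone 3 domain, so the state of NKX2-2 in Clone 3 depends on the annotation.

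NKX2-4, a close relative of NKX2-1 that neighbours NKX2-2 on chromosome 20, lay 3.53 kb inside another Clone 6 domain, chr20:21394001-21500000, of 106 kb. No Clone 3 domain touched that stretch, and the nearest was 117 kb away. NKX2-3, which acts in gut mesenchyme and spleen, lay 59.1 kb inside a Clone 6 domain of 150 kb, chr10:99442001-99592000. Clone 3 covered 50.0% of it, with a 75 kb domain at chr10:99445001-99520000 that stopped 12.9 kb before the start site. NKX2-6, a pharyngeal and heart outflow factor, lay 5.24 kb inside a 26 kb Clone 6 domain, chr8:23686001-23712000, which no Clone 3 domain touched. The 4 NKX genes of Clone 6 thus ranged from nearly complete cover of their domain by Clone 3 to none.

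NKX1-1, NKX1-2, NKX2-1, NKX2-5, NKX2-8, NKX3-2, NKX6-1, NKX6-2 and NKX6-3 lay in none of the 5 sets. NKX2-1 of thyroid and lung and NKX2-8 stood 71.1 kb and 133 kb from the nearest H3K27me3 domain, which was a 32 kb domain of Clone 3, chr14:36418001-36450000. In Clone 6 the nearest domain was 2687 kb from NKX2-1 and 2749 kb from NKX2-8. The cardiac gene NKX2-5 lay 457 kb from the nearest domain of either clone, and the skeletal and stomach gene NKX3-2 85.5 kb. The distance was 35.6 kb for NKX1-1, 478 kb for NKX1-2, 51.9 kb for the neural gene NKX6-2 and 211 kb for the stomach gene NKX6-3. NKX1-1 and NKX6-2 were this near to Clone 6 domains only, with Clone 3 domains 3590 kb and 1041 kb away. NKX6-1, needed in beta cells and motor neurons, with its start site at chr4:84499292, was far from any domain at 2203 kb.

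**Figure D3:**
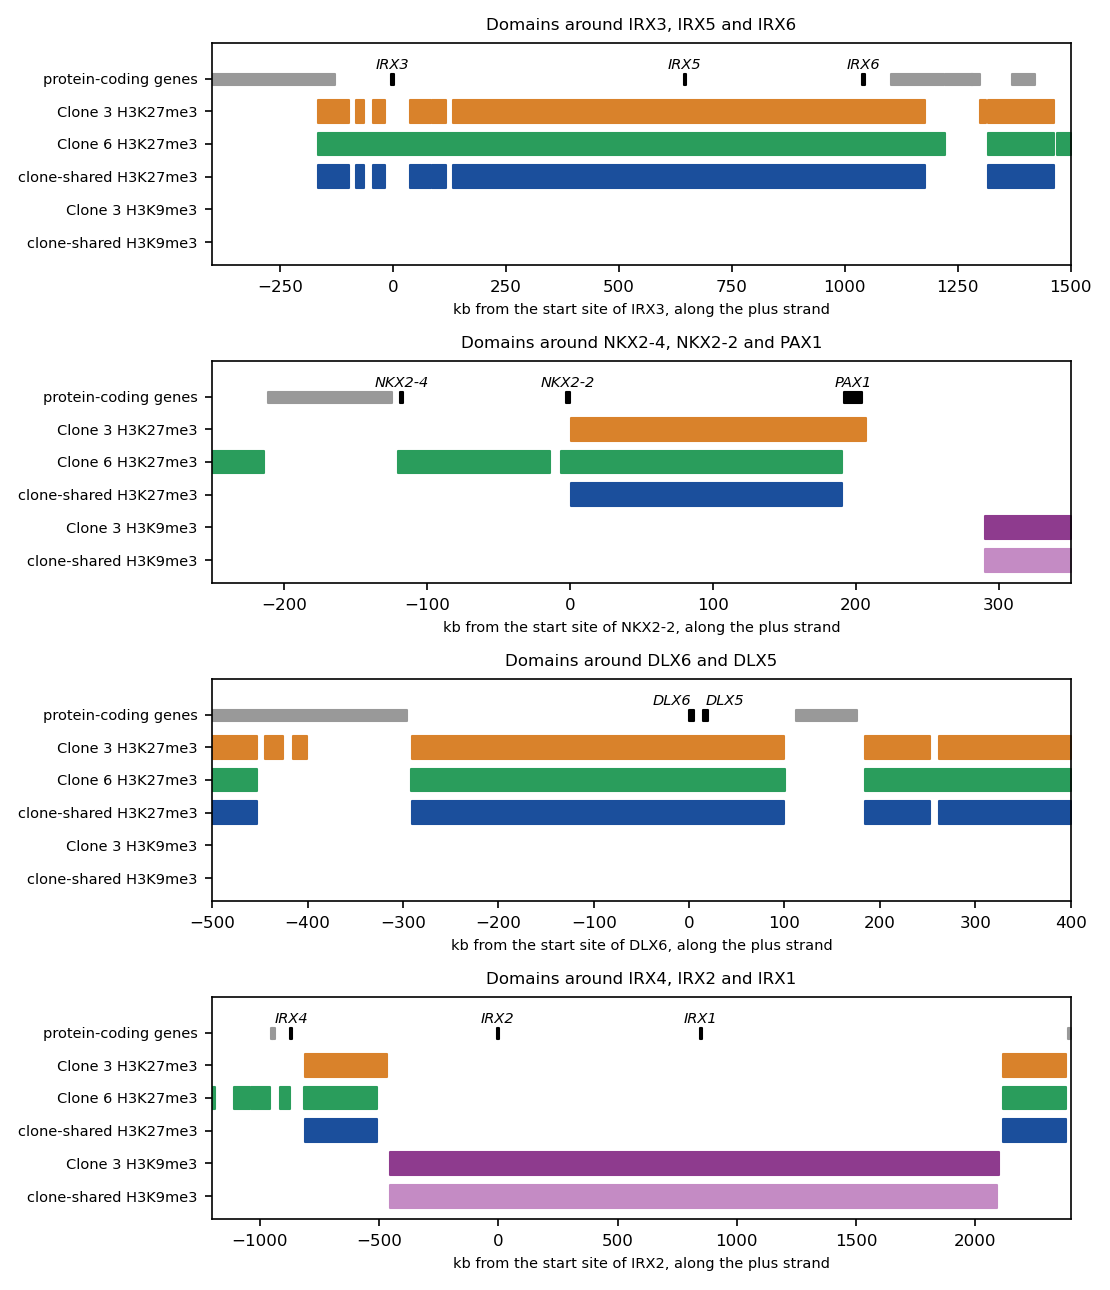
Each panel draws domains of the 5 sets as bars around neighbouring genes, with the distance in kb from the start site of 1 gene on the x axis, homeobox genes in black and other protein-coding genes in grey. The Clone 3 bar begins 0.937 kb beside NKX2-2 and runs over PAX1, the Clone 6 bars cover NKX2-4 and NKX2-2 and stop 1.66 kb before PAX1, and IRX2 and IRX1 lie within H3K9me3 bars with H3K27me3 bars on both sides.

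The IRX genes pattern neural plate, heart and limb and form clusters on chromosomes 16 and 5. IRX5 and IRX6 of the first and IRX1 and IRX2 of the second carried different marks, and IRX4 lay in no set. Of the 6 genes, 2 started in Clone 3 and 3 in Clone 6 H3K27me3 domains, beside 6.49% and 7.98% of all genes. On chromosome 16, IRX5 and IRX6 shared H3K27me3 domains in both clones. The Clone 3 domain, chr16:54420001-55465000, is 1045 kb long, and the Clone 6 domain, chr16:54122001-55508000, is 1386 kb long. IRX5 lay 511 kb inside the Clone 3 domain and 577 kb inside the Clone 6 domain, the deepest position of the 58 genes within H3K27me3 domains in both clones. IRX6 lay 141 kb and 184 kb inside. Besides IRX5, IRX6 and, in the Clone 6 domain, IRX3, the metalloproteinase gene MMP2 was the only protein-coding gene whose start site these domains held.

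IRX3 lay 165 kb inside the same Clone 6 domain and outside Clone 3. Clone 3 had domains on both sides, 17.8 kb and 37.2 kb from the IRX3 start site, which left a gap of 55 kb around the gene. In all, 6 Clone 3 domains covered 89.2% of the Clone 6 domain. The gap at IRX3 carried over to the clone-shared set, in which IRX5 and IRX6 remained in the 1045 kb domain.

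On chromosome 5, IRX1 and IRX2 were the only homeobox genes of the 58 in an H3K9me3 domain. Both start sites and both whole bodies lay in 1 Clone 3 domain of 2555 kb, chr5:2297001-4852000, and in 1 clone-shared domain of 2547 kb, chr5:2297001-4844000. IRX2, with its start site at chr5:2751677, lay 455 kb inside the edge of the Clone 3 domain, and IRX1, at chr5:3595832, lay 1256 kb inside. No other protein-coding start site lay in this domain. H3K27me3 domains flanked it, at chr5:1940001-2285000 in Clone 3 and chr5:1938001-2244000 in Clone 6 on the side of IRX2, and at chr5:4870001-5134000 in Clone 3 and chr5:4868001-5132000 in Clone 6 on the side of IRX1. IRX2 lay 467 kb and IRX1 1272 kb from the nearest H3K27me3 domain. IRX4, a ventricular heart gene and the third of this cluster, with its start site at chr5:1887236, lay in no set. It stood 11.2 kb from a 42 kb Clone 6 H3K27me3 domain, 52.8 kb from Clone 3 H3K27me3 and 410 kb from the H3K9me3 domain. Among all genes, 2 had a start site in Clone 3 domains of both marks, and neither is among the 58.

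The LHX genes encode LIM-homeodomain factors of brain, pituitary and gonad, and 1 of 8 lay in Clone 3, near the 6.49% of all genes, and 3 in Clone 6 H3K27me3 domains, beside 7.98%. LHX5, which acts in forebrain, lay in both clones, close to the edge. The Clone 3 domain, chr12:113468001-113722000, spans 254 kb, with the start site 4.28 kb inside and 41.8% of the body covered. The Clone 6 domain, chr12:113466001-113740000, spans 274 kb, with the start site 6.28 kb inside and 61.3% of the body covered.

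LHX2, a forebrain, eye and hair follicle factor, lay 7.67 kb inside an 18 kb Clone 6 domain, chr9:123994001-124012000, that covered 32.7% of its body. Its RefSeq start, chr9:124011768, lies close to the end of that domain. LHX8, which acts in basal forebrain and oocytes, lay 12.4 kb inside an 86 kb Clone 6 domain, chr1:75116001-75202000, that covered it whole. No Clone 3 domain touched either of these domains, and the nearest was 1209 kb from LHX2 and 438 kb from LHX8. LHX1, LHX3, LHX4, LHX6 and LHX9 lay in none of the 5 sets. Their distances to the nearest H3K27me3 domain were 1369 kb for LHX1 of kidney and head organiser, 603 kb for LHX3 and 1143 kb for LHX4 of pituitary, 224 kb for LHX6 of cortical interneurons and 3286 kb for LHX9 of gonad. LHX9, with its start site at chr1:197911902, was the farthest of the 58 genes, and LHX1 starts at chr17:36936785.

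The DLX genes act in forebrain interneurons, jaw and limb and are arranged as facing pairs. Only the pair on chromosome 7 lay in domains, 2 of 6 genes in each clone, beside 6.49% of all genes in Clone 3 and 7.98% in Clone 6. DLX5 and DLX6, 19.4 kb apart, were covered whole by nearly identical H3K27me3 domains, chr7:96715001-97105000 of 390 kb in Clone 3 and chr7:96714001-97106000 of 392 kb in Clone 6. DLX5 lay 80.1 kb inside the Clone 3 edge and 81.1 kb inside that of Clone 6, and DLX6 99.4 kb and 100.4 kb inside. No other protein-coding gene started in these domains. DLX1 and DLX2 on chromosome 2 lay 687 kb and 669 kb from the nearest H3K27me3 domain, and DLX3 and DLX4 on chromosome 17 lay 501 kb and 475 kb from it. These nearest domains were of Clone 6, and Clone 3 domains lay 3424 kb, 3406 kb, 1470 kb and 1496 kb from DLX1, DLX2, DLX3 and DLX4. These 4 genes were in none of the 5 sets.

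EN1 and EN2, the engrailed genes of the midbrain-hindbrain boundary, both lay near domain edges. Neither started in a Clone 3 H3K27me3 domain and EN1 alone in a Clone 6 one, beside 6.49% and 7.98% of all genes. The EN1 start site, at chr2:118847648, was 326 kb inside a Clone 6 domain of 868 kb, chr2:118306001-119174000, that also holds C1QL2 and MARCO. It lay 0.648 kb outside a Clone 3 domain of 536 kb, chr2:118311001-118847000, which covered 88.2% of the EN1 body, and the next Clone 3 domain began 20.4 kb away on the other side. Clone 3 covered 90.6% of the Clone 6 domain. EN2, at chr7:155458129, was in no set. It lay 2.13 kb from a 40 kb Clone 6 domain, chr7:155416001-155456000, and 9.87 kb from a 72 kb Clone 3 domain on the other side, chr7:155468001-155540000.

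OTX2, a forebrain and retina factor, lay in both clones, 144 kb inside a 430 kb Clone 3 domain, chr14:56673001-57103000, and 58.7 kb inside a 254 kb Clone 6 domain, chr14:56758001-57012000. Its relative OTX1, at chr2:63050057, was in no set and 2384 kb from H3K27me3. MEIS1, a HOX cofactor of blood and limb, lay in both clones, but the extent differed. A 184 kb Clone 3 domain, chr2:66401001-66585000, covered its whole 140.4 kb body, and a 48 kb Clone 6 domain, chr2:66400001-66448000, covered 10.4%. The start site was 32.5 kb inside the Clone 3 edge and 14.5 kb inside the Clone 6 edge. Of the 8 genes in both clones, MEIS1 was the only gene with less of its body covered in Clone 6. MEIS2, at chr15:37101299, lay 1468 kb and MEIS3 18.5 kb from the nearest H3K27me3 domain, and neither was in any set. For MEIS3 that domain was of Clone 6, and the nearest of Clone 3 lay 1139 kb away. In each clone 1 of 2 OTX and 1 of 3 MEIS genes started in an H3K27me3 domain, beside 6.49% of all genes in Clone 3 and 7.98% in Clone 6.

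SIX2, SIX3, SIX4, SIX5 and SIX6, of a family that works with EYA proteins in eye, kidney, ear and muscle, and the MSX genes of jaw, tooth and limb lay in none of the 5 sets. With 9.13% of all genes in an H3K27me3 domain of at least 1 clone, this is near the background for so few genes. The distance to the nearest H3K27me3 domain was 173 kb for SIX2, 106 kb for SIX3, 1146 kb for SIX4, 261 kb for SIX5 and 1361 kb for SIX6. For SIX2 and SIX3 that domain was of Clone 6, and Clone 3 domains lay 3014 kb and 2947 kb away. MSX1 lay 42.3 kb and MSX2 315 kb from the nearest H3K27me3 domain. Of the 38 genes outside the H3K27me3 domains of both clones, 10 lay more than 1 Mb from the nearest domain of either clone and 22 within 500 kb of one. By clone, 22 of the 49 genes outside Clone 3 domains and 13 of the 39 outside Clone 6 domains lay over 1 Mb away. The shares of all genes at these distances are not given here.

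**Figure D4:**
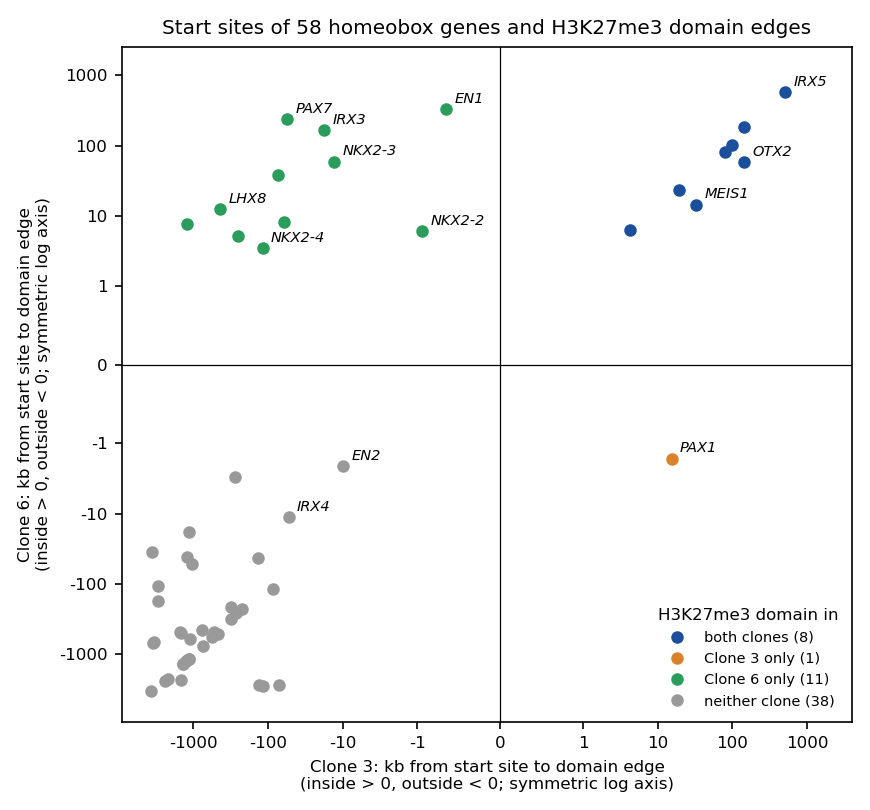
Each point is a gene, with the distance from its start site to the nearest Clone 3 H3K27me3 domain edge on the x axis and to the nearest Clone 6 edge on the y axis, in kb on symmetric log axes, positive inside and negative outside. EN1, NKX2-2 and PAX1 sit within 2 kb of the line between states, at 0.648, 0.937 and 1.66 kb outside, while LHX2, LHX8 and NKX2-6 lie at least 255 kb outside Clone 3 domains.

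The 12 genes that differed between the clones varied in how close the other clone's domains came. For EN1, NKX2-2 and PAX1 the start site lay less than 2 kb outside a domain of the other clone, and EN1 was in a Clone 3 gap of 21 kb. All Clone 6 H3K27me3 edges lay on even kb, against 48.8% of the Clone 3 edges, so these distances are within the step at which edges are given. For IRX3, NKX2-3, PAX5 and PAX7 the other clone had domains over 25.3% to 89.2% of the Clone 6 domain, but none at the start site. At LHX2, LHX8, NKX2-4, NKX2-6 and PAX4 no Clone 3 domain touched the Clone 6 domain, which was 18 to 106 kb long. LHX2, LHX8, NKX2-6 and PAX4, with MEIS1, made up the 5 of 19 Clone 6 genes in domains under 100 kb, and these 5 were also those lost when only the upper 50% of Clone 6 domains by the lower score was kept. With domains of at least 100 kb the counts were 9 in Clone 3 and 14 in Clone 6. The share of all genes under that cut is not given here, so these 2 counts have no background beside them. Whether the edge step or the short domains account for the difference between the clones was not tested.

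The median length of the H3K27me3 domains at the homeobox genes was above the all-gene median in Clone 3 and close to it in Clone 6. Single domains lay on either side of it in both clones. The 9 genes of Clone 3 lay in 7 domains of 184 to 1427 kb (median 390 kb per gene), beside a median of 285 kb for all genes in that set. In Clone 6 the 19 genes lay in 16 domains of 18 to 1386 kb, with a median of 274 kb, beside 268 kb for all genes. The start site lay a median of 80.1 kb from the edge in Clone 3 and 37.7 kb in Clone 6. Genes outside lay a median of 560 kb from a Clone 3 domain and 501 kb from a Clone 6 domain, beside 799 kb and 582 kb for all genes outside.

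By their medians the genes had more CpGs at the start site and fewer neighbours than all genes, features that the choice by name did not use, but single genes varied widely. The median was 62.0 CpGs per kb within 1 kb of the start site, beside 45.5 for all genes, with a range from 3.50 at PAX4 to 144 at NKX6-2. Within 500 kb of the start site lay a median of 4.5 other protein-coding genes, with a range from 0 to 34 at SIX5, beside a median of 12 for all genes. By state, the median CpG density was 59.5 for the 8 genes in both clones, 59.97 for the 11 in Clone 6 only and 62.7 for the 38 in neither. Over all genes it was 15.2 in both clones, 31.5 in Clone 6 only and 47.0 in neither. Within 500 bases of the start site the medians of the homeobox genes lay farther apart, at 59.4 in both clones, 70.9 in Clone 6 only and 74.9 in neither, beside 17.0, 36.5 and 60.9 for all genes. In each of these states the median of the homeobox genes was above that of all genes, but PAX4 at 3.50, LHX2 at 14.5 and LHX8 at 21.0, all in Clone 6 only, lay below the all-gene median of their state. The LHX2 value depends on the start site. The RefSeq start of LHX2, chr9:124011768, lies 10098 bases downstream of the start used here, in the same 18 kb domain. That domain ends at chr9:124012000, so this start is within the 2 kb step of Clone 6 edges. The 250 bases before the RefSeq start hold 25 CpGs, a number reached by 21.6% of promoters.

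GC content of the surrounding 100 kb had a median of 43.0% for the homeobox genes in both clones, 45.5% in Clone 6 only and 46.9% in neither. Over all genes these medians were 41.7%, 47.2% and 44.6%. IRX1 and IRX2 combined 120 and 125 CpGs per kb with 0 other protein-coding genes within 500 kb. All genes in Clone 3 H3K9me3 domains had medians of 35.5 CpGs per kb and 17 such neighbours. IRX3, MEIS1, MEIS2 and MSX2 also had 0 neighbours, in other states.

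**Figure D5:**
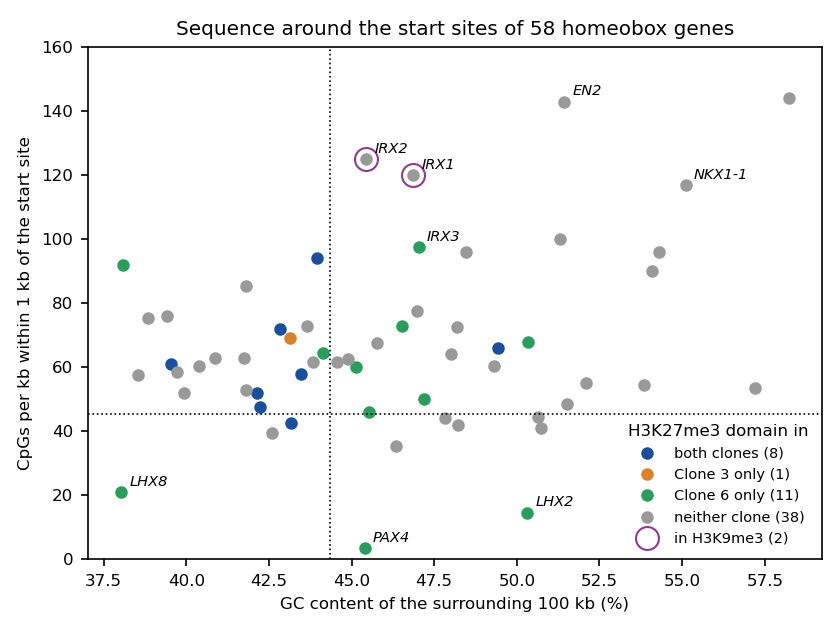
Each point is a gene, with GC content of the surrounding 100 kb on the x axis in percent and CpGs per kb within 1 kb of the start site on the y axis, coloured by H3K27me3 state and ringed if in an H3K9me3 domain. Dotted lines are the medians of all 19111 genes (44.3% and 45.5). The colours overlap along both axes, and PAX4, LHX2 and LHX8 lie below the other genes in Clone 6 domains.

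Neighbouring genes are not independent observations. Among neighbours joined by steps of at most 100 kb, NKX2-1, NKX2-8 and PAX9, DLX4 and DLX3, SIX3 and SIX2, and DLX1 and DLX2 lay outside the H3K27me3 domains of both clones. DLX6 and DLX5 shared a domain. Counting such neighbours once gave 8 loci in Clone 3 and 18 in Clone 6.

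Proteins that work with these factors were read out from a list. Of 21 partners, which include the EYA cofactors of the sine oculis proteins, the LDB and LMO partners of LHX proteins, the PBX partners of MEIS proteins and the TLE corepressors, EYA2 lay in Clone 6 H3K27me3 only (4.76%, beside 7.98% of all genes in that set) and EYA1 and TLE4 in both H3K9me3 sets (9.52%, beside 3.5% in Clone 3). None of 22 autosomal genes that encode Polycomb and H3K9 methylation proteins, such as EZH2, SUZ12 and SETDB1, had a start site in any set, which is near the background for a list of this size. Markers of colorectal epithelium, among them EPCAM, CDX2 and VIL1, lay in 0 of the 5 sets for 12 of 12 genes. Of 12 markers of other cell types, the neural genes OLIG2 (both clones) and NEUROG1 (Clone 6 only) lay in H3K27me3 domains. With 9.13% of all genes in an H3K27me3 domain of at least 1 clone, both marker counts are near the background and do not check the labelled cell type, and domain sets hold no RNA level that could.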

How the data were processed

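ChIP-seq reads of H3K27me3, H3K9me3 and input from the NoDox cells of both clones were processed by the authors. They trimmed reads with Trim Galore 0.5.0, aligned them to hg38 with bowtie2 2.3.5, used samblaster against duplicate reads and found broad domains by Enriched Domain Detector at its default settings. Only stretches found in every replicate of a clone were kept, and for the clone-shared sets only those of both clones. The deposited files hold domain starts and ends and, for the clone sets, 2 scores of the authors per domain with no named scale. The score was used only to rank domains within a set. The study states a minimum number of read pairs per library, but these files do not hold the depth reached, so the precision it gives is unknown.

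Start positions were shifted by 1 to count bases from 1. Genes were taken from GENCODE 44, and a gene lay in a domain when the 5′ end of its gene record did. Alternatives were the canonical or any transcript start, the gene body, domains of at least 100 kb, edges moved by 5 kb, the upper 50% of domains by the lower score, a window of 500 bases for CpGs, neighbours within 100 kb counted once and the RefSeq start. CpG density was counted within 1 kb of the start site and GC content over 100 kb. The interval procedures were tested on simulated data. No test over samples was possible, because replicates were merged before deposit.

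The genes of the rule are named, apart from 2 that count in the totals and are not reported here. Positions in full are given for genes that differ between clones, lie in H3K9me3 domains, lie within 10 kb of an edge or share a domain, and for the 5 with the longest domain and the 5 farthest from H3K27me3. The genes and lists were chosen with earlier results of these data known. Python 3.11.15, numpy 2.4.6, pandas 2.3.3 and matplotlib 3.10.9 were used.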

Additional observations from a re-analysis of the deposited data

How the results depend on the processing

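Under the alternatives, the counts of start sites in each set stayed within 1.5 times the values reported. Over all alternatives for start sites and bodies, the number of genes in H3K27me3 domains lay between 8 and 12 for Clone 3 and between 14 and 22 for Clone 6, while H3K9me3 held IRX1 and IRX2 throughout. Widening the domains by 5 kb added EN1 and NKX2-2 in Clone 3 and, among others, EN2 and PAX1 in Clone 6, and shortening them by 5 kb removed LHX5 in Clone 3 and NKX2-4 in Clone 6. The RefSeq start, which was added as an alternative once the data were known, moved NKX2-2 into the Clone 3 set (10 genes, 9 in both clones). The median CpG density within 1 kb of the start site was 1.499 per kb lower for genes inside than outside Clone 3 H3K27me3 domains, and 13.0 per kb lower within 500 bases. No paired analysis was possible because the deposited sets merge the replicates, and for the same reason no replicate could be left out. The limits are that each clone gives 1 merged set, that domains are broad calls at whole kb with an unknown score scale, and that the files hold neither the depth reached by each library nor a replicate error.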
